A study of Mus musculus with 9 samples.

Results

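Liver makes fatty acids from sugar after a meal, and 9 mouse genes of that route were followed here through the RNA-seq of 9 liver samples. They were the rows of the deposited table, among 56748 genes in all, that carried the symbols Srebf1, Thrsp, Acly, Me1, Acaca, Fasn, Elovl6, Scd1 and Pnpla3. The rule uses symbols alone, although the list was drawn up with earlier results of these data known. All 9 libraries came from liver of C57BL/6J mice, in 3 groups of 3. The Control mice were labelled as given water. The DSS mice drank 1.8% dextran sulfate sodium, a polymer that injures the colon and gives colitis, in 3 cycles that each alternated with recovery. By the methods, the control group of the colitis model received 200 µL of sterile water by mouth each day. No group without DSS is described for that model, so whether Control, DSS or both had this water is not stated. The Indirubin mice had DSS as well (labelled DSS+Indirubin) and received indirubin, an indigoid constituent of the herbal medicine indigo naturalis, at 1 g/kg/day. The text on the series speaks of colitis for the mice as a whole, so that the absence of DSS in the Control mice rests on their labels. Sex and the time since the last meal are not in the labels, and by the methods the mice were bought as young adults and had free access to food. The names of these genes as feeding-responsive are therefore background and no condition of the study.

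In hepatocytes, insulin and glucose switch on the transcription of these genes after a meal, through the factors SREBP-1c and ChREBP, and fasting switches it off. Citrate from the mitochondria is cleaved to acetyl-CoA, which is carboxylated to malonyl-CoA and built into palmitate with NADPH as the reductant. Palmitate is then elongated, desaturated and esterified into triglyceride.

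Each library held 6514863 to 7944684 counts, of which 71.6 to 91.3% came from the mitochondrial genome. The share was 71.6 and 77.2% in Indirubin-2 and Indirubin-3 and 72.4% in DSS-3, against 85.8 to 91.3% in the other 6 libraries, and the TMM factors of the Indirubin pair, 1.78 and 1.497, were the highest of the 9. This left 569044 to 2132208 counts of nuclear genes per library. Levels below are CPM, counts scaled to library size and then by the trimmed mean of M-values (TMM) across the 9 libraries, so that a level depends on how all genes of a library were scaled. All 10 hepatocyte markers, among them Alb and Apoa1, were counted in every library. The libraries Indirubin-2 and Indirubin-3 stood apart from the other 7. Their 12 pancreatic acinar markers summed to 1519 and 1463 normalized CPM, against 0 to 21.4 in the other libraries, and all 12 markers were counted somewhere. Their 9 neutrophil markers summed to 256 and 89.3, against 25.8 in Indirubin-1 and 1.14 to 19.7 in the Control and DSS libraries, and their hepatocyte markers to 7002 and 7587, against 8972 to 18554. Alb made up 58.1 to 75.4% of the hepatocyte sum in the 9 libraries. Of the 10 hepatocyte markers, Ttr and Serpina1a were lower in both these libraries than in each of the other 7, Tat was higher, at 282 and 265 normalized CPM against 54.9 to 179, and the other 7 markers overlapped. The 9 macrophage markers summed to 235 and 224, against 101 to 176, with C1qa, C1qb and Marco higher in both. The 6 endothelial markers summed to 41.8 to 55.2 in the Indirubin, 19.9 to 33.0 in the DSS and 24.7 to 51.7 in the Control libraries, and the 8 stellate and fibroblast markers to 92.2 to 183, 64.6 to 95.5 and 105 to 173. The adipocyte markers, 8 genes, summed to 45.0 and 51.9 in Indirubin-2 and Indirubin-3 and to 2.94 to 15.1 in the others, and nearly all of it was Fabp4, with 523 and 565 counts. Retn was also higher in both than in each of the other 7, at 15 and 25 counts against 0 to 9. Cfd and Adig were counted in Indirubin-3 alone, 9 and 2 times. Plin1 had 15 counts in Indirubin-1 and 2 in Indirubin-3, and Lep 4 in Control-3 alone. Adipoq, which defines adipocytes, and Slc7a10 had no count in any library. In bulk tissue, fewer hepatocytes and less of a transcript per hepatocyte cannot be told apart.

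The DNA just before the starts of Fasn, Thrsp, Acly and Me1 is shown as examples of promoters with CCAAT boxes and with GC boxes. The stretches are the 250 bases upstream of the start, from RefSeq on build GRCm38.p6, all on the minus strand and read 5′ to 3′ toward the start. Capitals mark CCAAT (the box bound by NF-Y) and GGGCGG (the GC box bound by Sp1), each searched on both strands, so that ATTGG and CCGCCC are the same boxes reversed.
Fasn, chr11:120824548-120824797: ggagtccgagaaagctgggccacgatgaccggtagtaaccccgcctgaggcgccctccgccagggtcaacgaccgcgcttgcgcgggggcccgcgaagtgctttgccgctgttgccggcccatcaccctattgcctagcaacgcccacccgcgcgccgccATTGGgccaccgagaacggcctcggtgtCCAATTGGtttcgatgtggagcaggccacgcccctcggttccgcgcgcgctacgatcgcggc
Thrsp, chr7:97417551-97417800: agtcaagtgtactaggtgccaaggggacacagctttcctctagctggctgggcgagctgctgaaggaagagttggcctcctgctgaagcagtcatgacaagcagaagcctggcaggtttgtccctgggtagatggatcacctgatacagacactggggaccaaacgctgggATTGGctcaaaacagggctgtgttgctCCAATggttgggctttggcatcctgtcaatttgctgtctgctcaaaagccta
Acly, chr11:100528001-100528250: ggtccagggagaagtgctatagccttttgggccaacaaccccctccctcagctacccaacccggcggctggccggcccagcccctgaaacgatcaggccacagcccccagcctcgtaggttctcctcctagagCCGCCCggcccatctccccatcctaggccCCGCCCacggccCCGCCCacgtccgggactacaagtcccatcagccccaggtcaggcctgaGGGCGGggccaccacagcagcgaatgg
Me1, chr9:86695915-86696164: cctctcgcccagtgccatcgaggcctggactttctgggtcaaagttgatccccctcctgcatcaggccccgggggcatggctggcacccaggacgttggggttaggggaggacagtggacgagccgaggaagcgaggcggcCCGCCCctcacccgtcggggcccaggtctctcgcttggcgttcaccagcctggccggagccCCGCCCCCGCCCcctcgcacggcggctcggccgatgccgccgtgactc
Fasn held 3 CCAAT boxes, which began 90, 62 and 59 bases before the start, and the last 2 overlap. Thrsp held 2, at 79 and 52 bases, and neither gene had a GC box there. Acly held no CCAAT box and 4 GC boxes, at 117, 88, 76 and 27 bases. The start of Me1 shown likewise held no CCAAT box and 3 GC boxes, at 109, 48 and 42 bases, and the other start of Me1 held a CCAAT box alone. Srebf1 had CCAAT boxes at 2 of its 3 starts and GC boxes at 2, Pnpla3 had both kinds of box, and Elovl6 and Acaca had neither. The only window of Acaca, chr11:84195188-84195437, lies inside the gene, so that the start of the gene itself was not searched. Of the members, 8 had an entry, with 11 starts between them, and Scd1 had none. CCAAT lay in 6 of these 11 windows and GGGCGG in 5, against 33.8% and 32.7% of all 32851 promoter windows of this length. Neither the sterol element TCACNCCAC nor the E-box CACGTG, present in 1.05% and 6.02% of all windows, lay in any of the 11. With shares this low, their absence from 11 windows says little about the members. Only these exact letters within 250 bases were searched, so that variant or more distant sites would be missed.

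Across the 9 libraries the members spanned a wide range of transcript level. To compare genes, CPM was divided by the gene's length in the deposited table. Scd1 led at 68.3 ± 46.8 CPM per kb (mean ± SD over 9 libraries), followed by Thrsp at 8.91 ± 5.85. In Indirubin-2 this order did not hold, with Acly at 3.08 CPM per kb above Scd1 at 1.92 and Thrsp at 1.22, and in Indirubin-3 Acly at 1.84 was also above Thrsp at 1.77. Me1 at 3.43 ± 1.62 and Acly at 3.31 ± 1.496 did not differ beyond their spread. Fasn at 1.17 ± 0.793 and Srebf1 at 1.12 ± 0.746 formed the next such pair, and Elovl6 at 0.418 ± 0.318 and Acaca at 0.196 ± 0.0942 were lowest among the genes detected. Pnpla3, a lipid-droplet protein of the patatin family (ENSMUSG00000041653, GRCm39 chromosome 15, 84052038 to 84071437), had 0 counts in all 9 libraries. A count of 0 allows up to 3 counts, which is 0.251 to 0.706 normalized CPM, or up to 0.456 per kb, in a library, so that in the shallowest library a level of Pnpla3 such as the mean of Acaca or Elovl6 was not detectable. These limits cover counting error only.

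In the Indirubin group, transcripts of the pathway were low in 2 of 3 libraries. Indirubin-2 and Indirubin-3 each lay below all 6 Control and DSS libraries for 6 of the 8 detected members, while 9.67% and 11.5% of all 9680 genes compared did so. Indirubin-1 did so for 1 of 8, where the share over all genes was 10.3%. Between the DSS and Control groups 7 of 8 members had negative fold changes, against 49.4% of all genes, and 3 of the 7 were within 0.2 of 0 on the log2 scale. With edgeR on all 6 libraries of a comparison, TMM, the default filter and no replicate term, no member passed an adjusted p of 0.05 in any of the 3 comparisons.

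**Figure D1:**
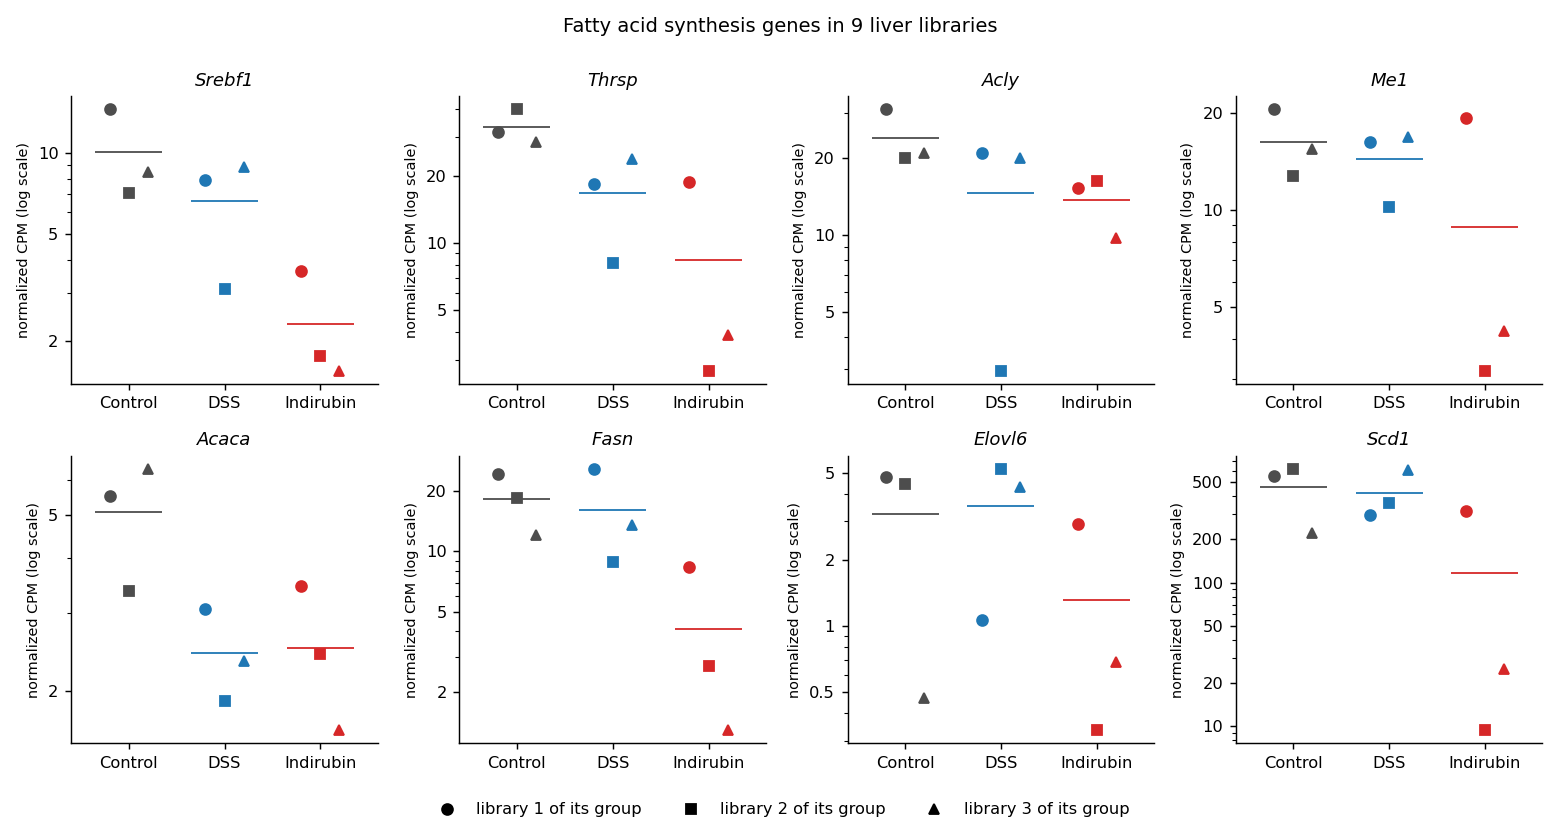
Normalized CPM of the 8 detected members (log scale, own axis per gene) in the 3 Control, 3 DSS and 3 Indirubin libraries; each point is 1 library, its shape the library's number, and bars are group means. For Scd1, Indirubin-2 and Indirubin-3 sit at 9.38 and 24.9, while the other 7 libraries sit between 222 and 618.

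Srebf1 (ENSMUSG00000020538, chromosome 11, 60089915 to 60113407 on GRCm39) encodes SREBP-1, the factor through which insulin raises the enzymes of the pathway. It stood at 14.5, 7.11 and 8.47 normalized CPM in the Control libraries, at 7.89, 3.12 and 8.83 in the DSS libraries and at 3.64, 1.76 and 1.55 in the Indirubin libraries. All 3 Indirubin libraries were below all 3 Control libraries, and Indirubin-1 overlapped the DSS range through DSS-2. The counts behind these levels were 18 to 94, and Rai1, which overlaps Srebf1 on the opposite strand, had 94 counts in all 9 libraries together. Since the strand setting of the counting is not given in the sources used here, reads of such partners cannot be told apart. The counts are per gene and do not separate the isoforms SREBP-1a and SREBP-1c.

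Thrsp (ENSMUSG00000035686, chromosome 7, 97062145 to 97066937), also called Spot 14, is a small acidic protein that responds to thyroid hormone and carbohydrate and promotes fatty acid synthesis. It stood at 31.4, 39.8 and 28.5 normalized CPM in Control, at 18.5, 8.14 and 23.9 in DSS and at 18.7, 2.68 and 3.87 in Indirubin libraries. The DSS and Control groups did not overlap, and the Indirubin group overlapped DSS only through Indirubin-1. Its relative Mid1ip1, which also acts on acetyl-CoA carboxylase, had 11 to 53 counts. The ratio of Thrsp to Mid1ip1 counts, which needs no scaling between libraries, was 4.27 to 8 in the Control and DSS libraries, 6.06 in Indirubin-1, and 0.780 and 1.25 in Indirubin-2 and Indirubin-3.

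Acly (ENSMUSG00000020917, chromosome 11, 100367179 to 100418826) encodes ATP citrate lyase, which makes cytosolic acetyl-CoA from citrate. It stood at 31.0, 20.1 and 20.9 normalized CPM in Control, 21.0, 2.94 and 20 in DSS and 15.3, 16.2 and 9.72 in Indirubin libraries. Here the lowest library was DSS-2, with 17 counts, and Indirubin-2 was the highest of its own group. Me1 (ENSMUSG00000032418, chromosome 9, 86463424 to 86578006) encodes the cytosolic malic enzyme, a source of NADPH. Its levels were 20.6, 12.8 and 15.5 in Control, 16.3, 10.2 and 16.9 in DSS and 19.3, 3.18 and 4.22 in Indirubin libraries. Indirubin-1 was thus among the highest of the 9 libraries, and Indirubin-2 and Indirubin-3 were the lowest.

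Acaca (ENSMUSG00000020532, chromosome 11, 84020498 to 84292477) encodes acetyl-CoA carboxylase 1, which makes malonyl-CoA. It stood at 5.52, 3.38 and 6.35 normalized CPM in Control, 3.06, 1.90 and 2.35 in DSS and 3.46, 2.43 and 1.64 in Indirubin libraries. The DSS and Indirubin groups covered nearly the same range, from 11 to 29 counts. The gene models Gm11437 and Gm37391 lie over Acaca in the table, Gm11437 on the opposite strand with 35 counts and the other on the same strand with 25, all of the latter in Indirubin-1. Its mitochondrial-membrane relative Acacb had 0 to 38 counts. Fasn (ENSMUSG00000025153, chromosome 11, 120696672 to 120715373) encodes fatty acid synthase, which builds palmitate. Fasn levels were 24.4, 18.5 and 12 in Control, 25.7, 8.83 and 13.5 in DSS and 8.37, 2.68 and 1.29 in Indirubin libraries. Fasn was the one member for which all 3 Indirubin libraries lay below all 6 others, although Indirubin-1 did so by 1.06-fold. The ratio of Fasn to Acaca counts was 1.89 to 8.38 in the Control and DSS libraries, 2.42 in Indirubin-1, 1.10 in Indirubin-2 and 0.789 in Indirubin-3.

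Elovl6 (ENSMUSG00000041220, chromosome 3, 129326004 to 129432144) encodes the elongase that takes palmitate to stearate. It stood at 4.76, 4.44 and 0.471 normalized CPM in Control, 1.06, 5.20 and 4.32 in DSS and 2.91, 0.335 and 0.688 in Indirubin libraries. With 2 to 46 counts per library it was the least precisely measured member, and every group held a low library. Scd1 (ENSMUSG00000037071, chromosome 19, 44382894 to 44396318) encodes the stearoyl-CoA desaturase that makes oleate. Scd1 was counted 2907, 3480 and 945 times in Control, 2513, 2078 and 6478 times in DSS and 1730, 112 and 289 times in Indirubin libraries. As normalized CPM this was 553, 618 and 222, then 296, 360 and 608, then 315, 9.38 and 24.9. Indirubin-1 lay inside the range of both other groups. The DSS mean was 1.34-fold its value, but 44.9-fold that of Indirubin-2 and 16.9-fold that of Indirubin-3, the widest gap of any member. Of the near-identical desaturases, with which Scd1 could share reads, Scd2 had at most 36 counts in a library, Scd4 at most 28 and Scd3 none.

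Scd1 supplied 70.7 to 89.9% of the summed member counts in 7 libraries, and 24.2 and 52.0% in Indirubin-2 and Indirubin-3. The members together were 0.235 to 0.465% of the nuclear counts in those 7 libraries and 0.0242 and 0.0314% in these. The ratio of Scd1 to Acly counts was 10.6 to 122 in the 7 libraries, 0.577 in Indirubin-2 and 2.56 in Indirubin-3, so that within these libraries the members were not lowered by one common factor. The ratio of Me1 to Acly counts was 0.637 to 3.47 in the 7 libraries and 0.196 and 0.434 in these.

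**Figure D2:**
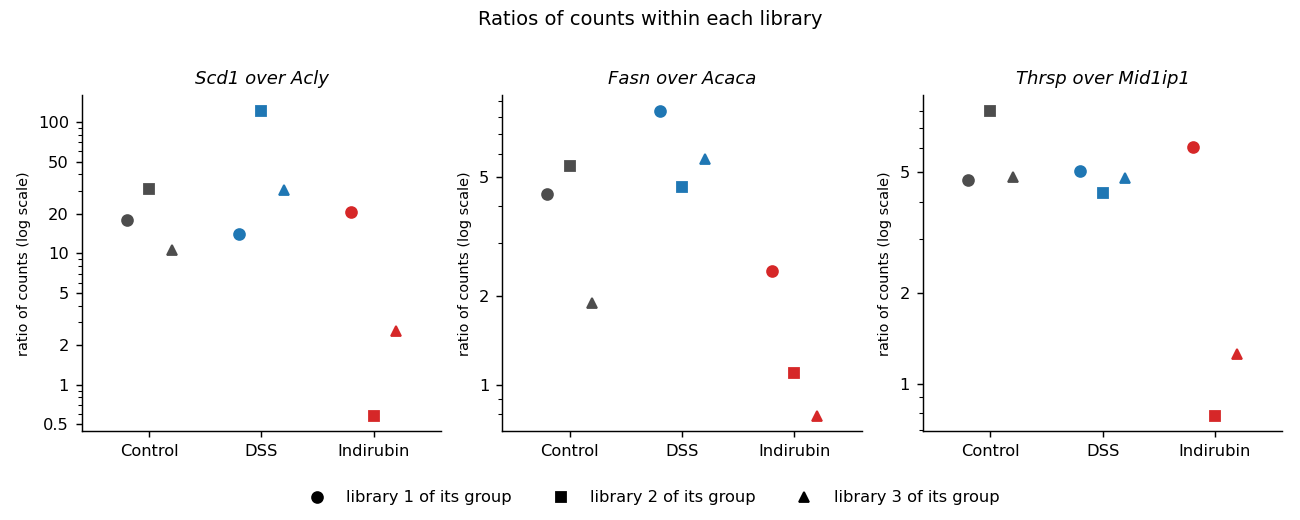
Ratios of raw counts of gene pairs within each library (log scale), which no scaling between libraries can alter; each point is 1 library, its shape the library's number. Scd1 over Acly was 0.577 and 2.56 in Indirubin-2 and Indirubin-3 and 10.6 to 122 elsewhere.

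The comparison of the Indirubin with the DSS group asks what indirubin added to colitis, and Fasn, Scd1 and Srebf1 had the most negative values among the members. The median log2 fold change of the 8 members was -1.24, against 0.15 over all 9117 genes tested, and 7 of the 8 were negative, against 43.2% of all genes. Fasn was 4.01-fold lower in the fit (log2 fold change -2.0, standard error 0.67), without overlap, which held for 5.9% of all genes in this direction and 10.5% in the other. Its adjusted p was 0.492 by the quasi-likelihood test of edgeR, adjusted by Benjamini-Hochberg over all genes tested. The log2 value of Scd1 was -1.83 (standard error 0.97, adjusted p = 0.742, edgeR) and that of Srebf1 -1.53 (standard error 0.67, adjusted p = 0.628, edgeR). Elovl6 at -1.46 ± 1.07, Thrsp at -1.01 ± 0.69 and Me1 at -0.72 ± 0.63 (log2 fold change ± standard error) followed, and Acly at -0.09 ± 0.59 and Acaca at 0.03 ± 0.84 were near 0. None of the 8 passed an adjusted p of 0.05, as did 0% of all genes in either direction in edgeR, and 2 (Fasn and Srebf1) had an unadjusted p under 0.05, against 3.22% of all genes in that direction and 4.45% in the other. DESeq2's Wald test called 80 genes and no member. With library size as the only scaling, the median of all genes was 0.43, that of the members -1.34, and Acly turned to 0.08.

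These values turned on which Indirubin libraries were in the fit. Without Indirubin-1, Scd1 stood at -4.72 (adjusted p = 0.00188) and Fasn at -3.12 (adjusted p = 0.0336) by edgeR, these 2 members being called, and the members' median was -2.28, with 58 genes higher and 76 lower over all. Without Indirubin-2 and Indirubin-3 the median was -0.09, 4 of 8 members were negative and none was called. With 1 Indirubin library left, that library is assumed to vary like the DSS libraries. Without any filter on low counts, Fasn and Scd1 were called as well, at adjusted p of 0.0487 and 0.0199 (edgeR), among 156 genes. The acinar, neutrophil, macrophage, adipocyte and hepatocyte marker sums of Indirubin-2 and Indirubin-3 moved with these values. Their mitochondrial shares were low, as was that of DSS-3 (72.4%), where Scd1 stood at 608 normalized CPM. Against DSS, 6 of 6 endothelial and 7 of 8 stellate and fibroblast markers were higher as well (median log2 fold changes 1.52 and 1.09). The part of all these in the members' values was not tested.

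**Figure D3:**
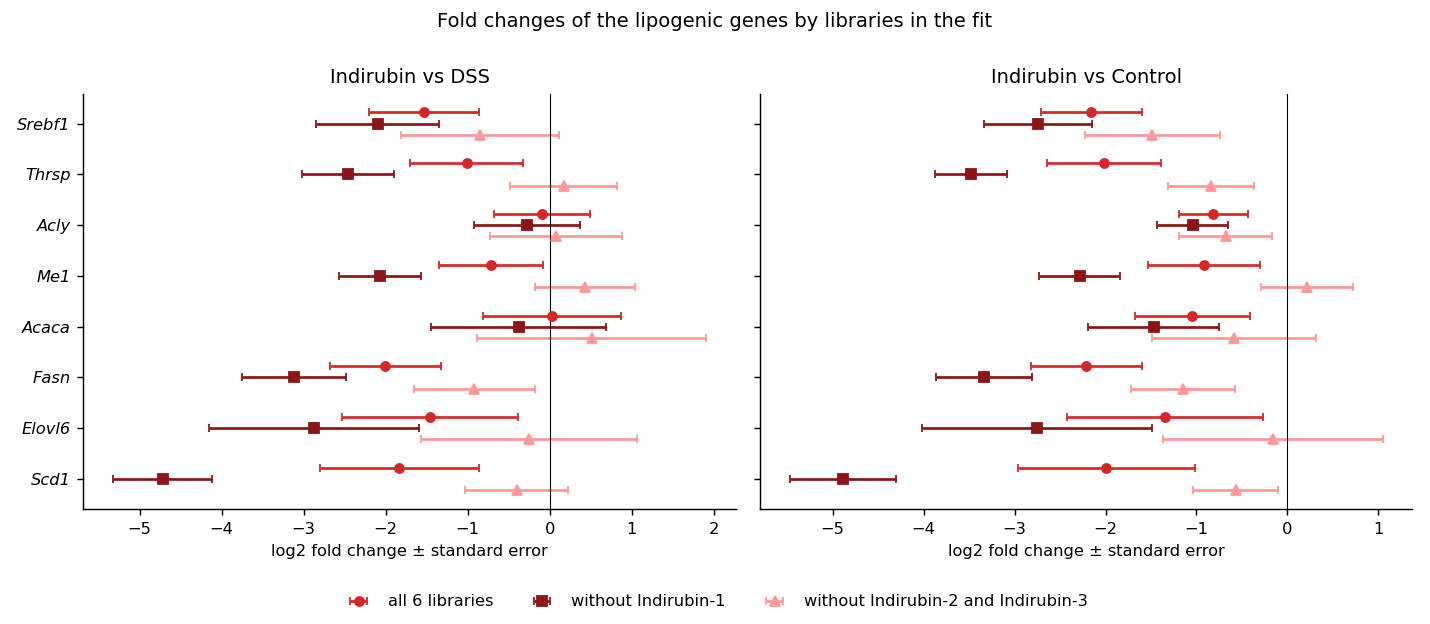
Log2 fold change with its standard error for the 8 members in Indirubin against DSS (left) and against Control (right), with all 6 libraries, without Indirubin-1, and without Indirubin-2 and Indirubin-3. Scd1 against DSS was -1.83, -4.72 and -0.40 in these 3 fits.

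Against the Control group, all 8 detected members had negative values in the fit of all 6 libraries with TMM. Acly turned to 0.16 with library size as the only scaling, and Me1 to 0.21 without Indirubin-2 and Indirubin-3. The median log2 fold change was -1.67, against 0.13 over all 8059 genes tested, of which 44.5% were negative. With library size only these medians were -1.05 and 1.11. Fasn was 4.63-fold lower (log2 fold change -2.21, standard error 0.61, adjusted p = 0.138), Srebf1 4.45-fold lower (-2.15, standard error 0.56, adjusted p = 0.120) and Thrsp 4.04-fold lower (-2.01, standard error 0.63, adjusted p = 0.175), all by edgeR. These 3 had an unadjusted p under 0.05, against 6.38% of all genes in that direction and 7.45% in the other. With Acly, at -0.81 ± 0.38 (log2 fold change ± standard error), they were also the 4 members whose groups did not overlap, against 9.07% of all genes lower and 12.7% higher. Scd1 at -1.99 ± 0.97, Elovl6 at -1.35 ± 1.08, Acaca at -1.04 ± 0.63 and Me1 at -0.92 ± 0.61 overlapped. None of the 8 passed an adjusted p of 0.05, while 0.062% of all genes were called higher and 0.174% lower. DESeq2's Wald test called Srebf1 and Fasn, at adjusted p of 0.0195 and 0.0336, among 316 genes. Without Indirubin-1, edgeR called Fasn, Me1, Scd1, Srebf1 and Thrsp among 465 genes, with a median of -2.75 over the members, and without Indirubin-2 and Indirubin-3 it called none of the members among 27 genes, with a median of -0.63. Without a filter on low counts it called 4 among 379 genes, namely Fasn, Scd1, Srebf1 and Thrsp.

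Between DSS and Control, the levels of Thrsp did not overlap. Those of Acaca did not overlap when scaled over the 9 libraries, with 3.38 the lowest Control and 3.06 the highest DSS value, but overlapped when scaled over the 6. The log2 fold change of Thrsp was -0.97 (standard error 0.38, adjusted p = 0.497, edgeR), 1.96-fold lower with DSS, and 8.21% of all genes likewise had every DSS library below every Control library, and 7.91% above. The exact permutation p for such a separation of 3 against 3 was 0.1, the smallest this design allows. The median over the 8 members was -0.38, against 0.01 over all 7482 genes tested, and 7 of 8 were negative, against 49.4% of all genes. Acaca was at -1.05 ± 0.69, Acly at -0.71 ± 0.53 and Srebf1 at -0.60 ± 0.51 (log2 fold change ± standard error). Me1 at -0.17, Fasn at -0.16, Scd1 at -0.12 and Elovl6 at 0.15 were within 1 standard error of 0. None passed an adjusted p of 0.05, while 0.214% of all genes were called higher and 0.495% lower, and Thrsp was the 1 member with an unadjusted p under 0.05, against 4.05% of all genes in that direction and 3.48% in the other. The Wald test of DESeq2 called no member. With scaling by library size only, the median of all genes moved to 0.70 and the members' median to 0.33, and Srebf1, Acly, Me1, Fasn and Scd1 turned positive while still below the median of all genes.

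Pathway companions were read from 6 lists of 82 genes, again with no call at an adjusted p of 0.05 between the Indirubin and DSS groups. Over all genes in that comparison, 43.2% were lower with indirubin, 5.9% were lower without overlap and 10.5% higher without overlap. By edgeR, 3.22% were lower and 4.45% higher at an unadjusted p under 0.05. Of the insulin and glucose response list, 7 of 9 genes tested were lower with indirubin, 3 of them at an unadjusted p under 0.05, with a median log2 fold change of -0.91 against 0.15 over all genes. Angptl8, an insulin-induced inhibitor of lipoprotein lipase, had 1744, 567 and 639 counts in the DSS libraries, 21, 195 and 29 in the Indirubin libraries and 172, 163 and 136 in Control. As normalized CPM its 3 groups did not overlap, at 60.0 to 205 with DSS, 2.50 to 16.3 with indirubin and 29.0 to 32.7 in Control. The raw counts of the Indirubin and Control groups did overlap, through Indirubin-2. The log2 fold change was -4.02 (standard error 0.74, adjusted p = 0.253) against DSS and 1.99 (standard error 0.43, adjusted p = 0.0556) for DSS against Control by edgeR. Both were called by DESeq2's Wald test, at adjusted p of 4.3e-06 and 0.000464. The value against DSS lay between -5.27 without Indirubin-2 and -3.53 without DSS-1, and that of DSS against Control between 1.35 without DSS-1 and 2.34 without DSS-3. By edgeR, leaving out 1 library gave adjusted p from 0.0377 (without Indirubin-1) to 0.743 against DSS, and from 0.0171 (without DSS-3) to 0.346 for DSS against Control. Against DSS, edgeR gave 0.0182 with all 9 libraries in one fit, 0.0478 where each library needed 10 counts and 2.9e-11 without a filter. It gave 0.201 with DESeq2 size factors and 0.305 with library size only. For DSS against Control these 5 fits gave 0.327, 0.00343, 5.4e-05, 0.0505 and 0.0753. Against Control, the Indirubin value of Angptl8 was -2.04 and moved to -3.32 without Indirubin-2. For Angptl8, Indirubin-1 lay between the other libraries of its group, whereas for Scd1, Thrsp and Me1 it lay far above them. Irs2, an insulin receptor substrate that insulin represses in liver, had 18, 15 and 14 counts in Control, none in any DSS library and 29, 46 and 8 in Indirubin libraries. Its Control mean was at least 8.13-fold higher than DSS, taking the floor of 3 counts per DSS library. The difference was not called, with an adjusted p of 0.18 by edgeR and of 0.0659 to 0.701 over its alternative fits.

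Of the list on acetyl-CoA, citrate and NADPH supply, 8 of 12 genes were higher and 4 lower against DSS, with a median of 0.21. Among all genes 43.2% were lower, with a median of 0.15. Slc25a1, the citrate carrier that feeds Acly, had 248, 82 and 292 counts in DSS and 51, 121 and 85 in Indirubin libraries. Its normalized CPM did not overlap, from 14.2 to 29.2 with DSS and from 7.31 to 10.1 with indirubin, and the log2 fold change was -1.41 (standard error 0.42, adjusted p = 0.436, edgeR). Idh1, a cytosolic NADPH source, was at -1.12 ± 0.41. G6pdx, the entry enzyme of the pentose phosphate route and another NADPH source, went the other way, at 1.36 ± 0.60, with 20, 14 and 30 counts in DSS and 51, 62 and 60 in Indirubin libraries. Taldo1 of the same route was at 0.96 ± 0.39 for Indirubin against Control.

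Of the other elongases and desaturases, 9 of 11 were lower with indirubin than with DSS, with a median log2 fold change of -0.85, and 3 of the 9 had an unadjusted p under 0.05. Among all genes 43.2% were lower, and 3.22% were lower with such a p. Elovl2, which elongates polyunsaturated fatty acids, had 240, 149 and 336 counts in DSS and 74, 40 and 92 in Indirubin libraries (log2 fold change -1.80 ± 0.50, adjusted p = 0.433, edgeR). Tecr, the last reductase of the elongation cycle, was at -1.79 ± 0.67, and moved between -2.91 without Indirubin-1 and -1.13 without DSS-3. Elovl2 was called without Indirubin-1 (-2.45, adjusted p = 0.0293, edgeR) and without a filter on low counts (adjusted p = 0.0435). Elovl5 stood at 22.4 normalized CPM in Indirubin-1 and at 5.86 and 3.79 in Indirubin-2 and Indirubin-3, against 19.5 to 41.2 in the other 6 libraries, a division of the group like that of Scd1. Elovl3, an elongase of very long saturated chains, passed an adjusted p of 0.05 in edgeR with the settings used throughout, as no other list gene did. It had 537, 687 and 465 counts in Control, 73, 112 and 36 in DSS and 167, 0 and 15 in Indirubin libraries, and fell by 3.37 log2 units from Control to DSS (standard error 0.53, adjusted p = 0.0103, edgeR). That call was lost without Control-2 (adjusted p = 0.0541) and with all 9 libraries in one fit (adjusted p = 0.405).

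Of the regulators, 10 of 15 were lower with indirubin than with DSS, with a median log2 fold change of -0.13. Insig1, the sterol-sensing retention protein of SREBP, was at -1.40 ± 0.50 (log2 fold change ± standard error) with overlap, and Mlxipl, which encodes ChREBP, at -1.93 ± 0.87 for Indirubin against Control from 2 to 68 counts. In triglyceride assembly, 9 of 13 genes were lower and 4 higher, with a median of -0.45. Pnpla2, the adipose triglyceride lipase, had 29, 31 and 27 counts in DSS and 42, 229 and 192 in Indirubin libraries (1.94 ± 0.52, adjusted p = 0.433, edgeR). Lpin1, a phosphatidate phosphatase, was at 2.49 ± 0.88 and Agpat2, an acyltransferase of the same route, at -1.14 ± 0.45. Acsl1, which activates fatty acids, was at -0.996 ± 0.34 for DSS against Control and -1.65 ± 0.55 for Indirubin against Control, and Dgat1 at -3.49 ± 1.35 in the latter, from 12, 14 and 21 counts in Control and 0, 9 and 0 in Indirubin libraries.

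The list of fasting-response genes, of which 16 of 17 were in the table, was divided between the directions, with 9 of 15 higher and 6 lower against DSS and a median of 0.57. Igfbp1, which insulin represses, had 18, 47 and 264 counts in DSS and 62, 468 and 1172 in Indirubin libraries (2.12 ± 0.83, adjusted p = 0.567, edgeR), and without Indirubin-2 and Indirubin-3 its value turned to -0.03. Leaving out 1 library gave values from 1.11 (without Indirubin-3) to 3.27 (without DSS-3). Without a filter on low counts edgeR called Igfbp1 (adjusted p = 0.0189). Fgf21, a hormone of the fasted liver, had 0, 1 and 0 counts in Control, 9, 0 and 6 in DSS and 12, 12 and 32 in Indirubin libraries. Angptl4, another lipoprotein lipase inhibitor, was at -1.69 ± 0.39 for DSS against Control (adjusted p = 0.0798, edgeR), and was called by DESeq2's Wald test (adjusted p = 0.0034) and by edgeR where each library needed 10 counts (adjusted p = 0.0236). Pck1, a rate-limiting enzyme of gluconeogenesis in the same list, had 467, 289 and 1444 counts in DSS and 372, 2597 and 1948 in Indirubin libraries, named here after its values were seen.

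Against Control, the same lists had 7 of 10 insulin and glucose genes lower (median -0.71), 7 of 12 supply genes (-0.23), 9 of 11 elongases and desaturases (-1.01), 10 of 14 regulators (-0.13), 11 of 14 triglyceride genes (-0.46) and 8 of 15 fasting-response genes (-0.11), beside a median of 0.13 over all genes. Among all genes 44.5% were lower. Slc25a1 was at -1.54 ± 0.37, Angptl8 at -2.04 ± 0.60, Tecr at -2.12 ± 0.65 and Insig1 at -1.15 ± 0.42 (log2 fold change ± standard error), none with overlap. A lack of overlap held for 9.07% of all genes in that direction and 12.7% in the other. Lpin1 at 3.0 ± 0.72, Pnpla2 at 1.34 ± 0.50, G6pdx at 1.54 ± 0.65 and Igfbp1 at 1.73 ± 0.69 were higher, Pnpla2 and Igfbp1 with overlap. None of these passed an adjusted p of 0.05 in edgeR with the settings used throughout. Without Indirubin-1, Slc25a1, Tecr, Insig1, Lpin1, Elovl2 and Acsl1 were called by edgeR, with Tecr at -3.25 and Acsl1 at -2.70, and without a filter on low counts Angptl8, Tecr, Lpin1, Igfbp1, Elovl2 and Acsl1 were, among the 465 and 379 genes given above. Between DSS and Control, the lists were divided between the directions, with 6 of 10, 6 of 12, 5 of 10, 8 of 13, 6 of 14 and 5 of 14 genes higher in the order just given, beside a median of 0.01 over all genes. Among all genes 49.4% were lower there.

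**Figure D4:**
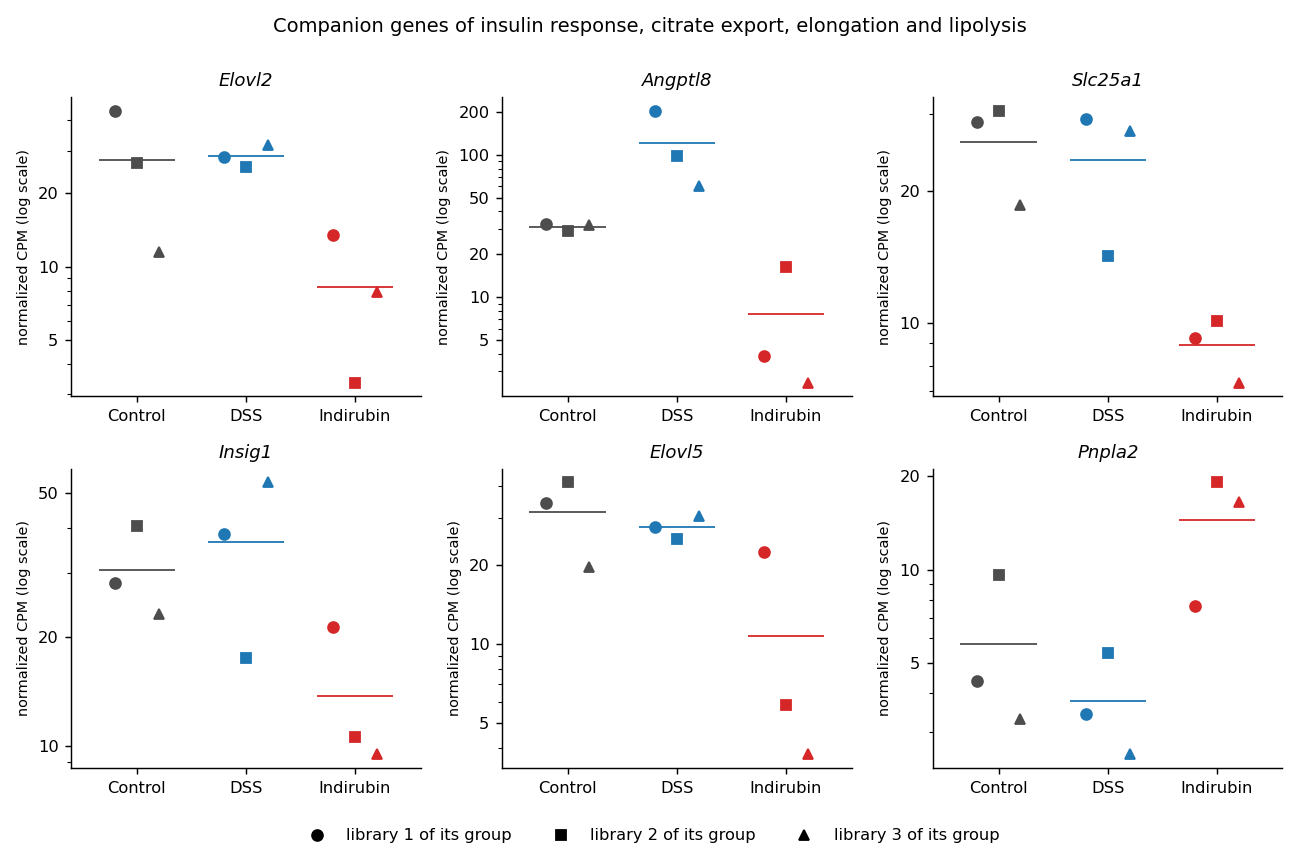
Normalized CPM (log scale, own axis per gene) of 6 companion genes in the 9 libraries; each point is 1 library, its shape the library's number, and bars are group means. For Elovl2, Angptl8 and Slc25a1 all 3 Indirubin libraries lie below all 3 DSS libraries, while for Elovl5 Indirubin-1, at 22.4, lies far above the 5.86 and 3.79 of the other libraries of its group.

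The members did not share one profile across the 9 libraries. Over the 28 pairs of members the median Pearson r of log2 CPM was 0.64, from -0.14 to 0.92. Against the mean of the other members, r was 0.96 for Thrsp, 0.94 for Srebf1, 0.91 for Me1 and for Fasn and 0.86 for Scd1, and was 0.64 for Acaca, 0.46 for Elovl6 and 0.43 for Acly. These are descriptions over 9 libraries that share group and scaling. Outside the members, the profiles most like their mean, among the 1909 nuclear genes counted 20 times or more in each library, were those of Ephx1, Gpd1, Nudt7, Ptms and Tle5, each with r of 0.97. In all, 166 of the 1909 had r over 0.8.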

How the data were processed

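RNA of 9 liver samples, 3 per group, was measured by bulk RNA-seq. The authors made libraries from 400 ng RNA, sequenced them on a DNBSEQ platform and deposited whole-number counts per gene without normalization, with 569044 to 2132208 nuclear counts per library. The submitters' processing notes name GRCm39, and aligner, counter and strand setting are not given in the sources used here. The FPKM values deposited by the authors served only to check the counts, and their log2 fold changes, p-values and group-specific gene lists were not used. The labels number the samples without saying that each is a separate mouse, so p-values measure the spread between these samples, which may be technical.

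Counts were tested with edgeR 4.0.16 (R 4.3.3), using TMM, filterByExpr (minimum count 10, minimum total 15), glmQLFit and glmQLFTest on the 6 libraries of each comparison, with Benjamini-Hochberg adjustment. Fold changes come from these fits, and levels from one scaling over 9 libraries. The standard error was the absolute log2 fold change over the square root of F. Profiles used log2 CPM with a prior count of 2. Named were all 9 members, of each list up to 2 genes per comparison and direction with the smallest unadjusted p under 0.05, any with an adjusted p under 0.05, and the 5 most similar profiles. Mid1ip1, Elovl5, Pck1 and paralogs and overlapping genes of members fall outside this rule and were added after their values were seen, and genes of the insulin and glucose list that the rule also names are not reported here. Members and lists were chosen with earlier results of these data known. Alternatives were size factors and Wald test of DESeq2 1.42.0, library size only, 2 other filters, a fit of the 3 groups together, replicate numbers as blocks, no mitochondrial genes, each library left out and, chosen after seeing the data, Indirubin-2 and Indirubin-3 left out together. The scripts were tested on simulated data. Promoters were searched with Python 3.11.15 and figures drawn with matplotlib 3.10.9.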

Additional observations from a re-analysis of the deposited data

How the results depend on the processing

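Over all genes, the number of genes at an adjusted p under 0.05 was 53 for DSS against Control, 0 for Indirubin against DSS and 19 for Indirubin against Control. It was 143, 80 and 316 with the DESeq2 Wald test, 125, 156 and 379 without a filter on low counts, 84, 2 and 72 where each library needed 10 counts, 11, 4 and 56 with the 9 libraries fitted together, and 19, 2 and 266 with library size only. Leaving out 1 library gave 12 to 64, 0 to 134 and 1 to 465. Of the members, 0 were called in each comparison. Leaving out 1 library gave 0, 0 to 2 and 0 to 5, no filter gave 0, 2 and 4, and the DESeq2 Wald test gave 0, 0 and 2. The members' median ranged on leaving out 1 library from -0.75 to -0.12, from -2.28 to -0.78 and from -2.75 to -1.24, the last 2 lowest without Indirubin-1, and without Indirubin-2 and Indirubin-3 it was -0.088 against DSS and -0.63 against Control. With library size only it was 0.33 for DSS against Control, where the median of all genes was 0.70.

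Pairing by replicate number was looked for in the deviations of each gene from its group mean. These correlated at -0.02 to 0.03 across genes between same-numbered libraries of different groups. That gave no sign of pairing, although 3 libraries per group cannot exclude it. With the replicate number as a block, 30, 3 and 49 genes were called over all, and of the members 1, Fasn for Indirubin against Control (adjusted p = 0.048). Angptl8 for Indirubin against DSS was called in that fit too, at -4.28 (adjusted p = 0.0172, edgeR). In that fit Acly, Acaca and Scd1 against DSS stood at 0.19, -0.00465 and -3.59.

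The sign of the following genes turned. For DSS against Control, library size only gave Srebf1 0.16, Acly 0.077, Me1 0.55, Fasn 0.50 and Scd1 0.58, all below the median of 0.70 to which all genes moved. Leaving out 1 library gave -0.35 to 0.015 for Me1, -0.72 to 0.070 for Fasn, -0.40 to 0.57 for Elovl6 and -0.49 to 0.086 for Scd1. For Indirubin against DSS, library size only gave Acly 0.080 and no filter gave Acaca -0.089, and leaving out 1 library gave -0.64 to 0.18 for Acly and -0.38 to 0.26 for Acaca. Without Indirubin-2 and Indirubin-3, Thrsp was 0.17, Acly 0.077, Me1 0.43 and Igfbp1 -0.031 against DSS, and Me1 0.21 and Igfbp1 -0.46 against Control. For Indirubin against Control, library size only gave Acly 0.16 and Idh1 0.041, where the median of all genes moved from 0.13 to 1.11. Apart from the alternatives' own construction (fewer libraries, other genes tested), the cause was not tested. Low nuclear depth limits Elovl6, Acaca and Srebf1 most, with 2 to 46, 11 to 29 and 18 to 94 counts per library.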
